A study of Arabidopsis thaliana with 9 samples.

Results

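Of 32833 genes counted in Arabidopsis thaliana seedlings, 158 were expressed at a higher level in plants that make the flowering regulator CONSTANS (CO) from the broadly active 35S promoter, while plants that make it from the SUC2 promoter of phloem companion cells stayed close to wild type. The genes were chosen by measured values. A gene's level was its count divided by the total of its sample and multiplied by 1000000, abbreviated CPM. A gene was taken when its mean level was at least 1 CPM in 35S:CO and at least 2 times the means of SUC2:CO and of Col-0, when the means of SUC2:CO and Col-0 lay within 1.4-fold of each other, and when the lowest 35S:CO sample lay above all 6 other samples. COL1 (AT5G15850), a close relative of CO, was left out by the same rule. Because all 9 samples and all comparisons were used in this choice, the levels and folds of the 158 genes are given as a description with no test.

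The series holds RNA-seq counts from 3 genotypes with 3 samples each. In 35S:CO, the CO gene is driven by the viral 35S promoter. In SUC2:CO, labelled SUC2:HA:CO, CO with an HA tag is made from the SUC2 promoter in the co-10 background, so this line differs from Col-0 in its co allele as well as in its transgene. Col-0 is the wild-type accession and, per the labels, the accession of all samples. All groups were soil-grown seedlings at 22 °C under 16 h of light and 8 h of dark, taken 7 days after germination at zeitgeber time (ZT) 14, the hours since lights on. Whether a transgene was represented by 1 line or several, and whether the 3 samples of a genotype were separate cultures, is not given in the sources used here, so the spread between samples may be technical.

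CO is a B-box zinc finger protein that promotes flowering in long days by activating the florigen gene FT in the leaf vein. It binds DNA together with NF-Y subunits and is degraded in darkness by the COP1/SPA complex. The SUC2 promoter places CO in the cells where FT is normally switched on, whereas the 35S promoter also places it in mesophyll, epidermis and other cells. The transgenic lines also differ in CO RNA level, in the HA tag named for SUC2:CO and in its co-10 background. The place of CO expression cannot be told apart from these. In bulk seedlings, more cells of a type and more RNA per cell cannot be told apart.

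Sample totals ran from 25563118 to 26636174 counts. CO itself averaged 641 ± 82.7 CPM in 35S:CO, against 52.3 ± 5.92 CPM in SUC2:CO and a wild-type mean of 9.28 ± 0.495 CPM (SD, n = 3 each), and it is not among the 158 genes. The 158 genes together held 1.76 ± 0.100% of the counts in 35S:CO, 0.539 ± 0.0108% in SUC2:CO and 0.4996 ± 0.0135% in Col-0. Reads from plastid genes made up between 0.882% and 1.45% of a sample. Of the lists of markers for floral organs, seed, root, phloem companion cells, guard cell lineage, epidermis, xylem and shoot meristem, no gene was among the 158. The summed level of the floral organ markers was 32.3 to 36.8 CPM in 35S:CO, 33.4 to 41.1 CPM in SUC2:CO and 14.8 to 17.3 CPM in Col-0, and its part in the results was not tested.

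Most of the 158 genes code for proteins (152), and 6 do not. Their mean level in 35S:CO ran from 1.01 to 4412 CPM with a median of 25.4 CPM; 29 genes lay under 5 CPM and 31 at 100 CPM or above. The fold of the 35S:CO mean over the higher of the other means had a median of 3.01 over the 157 genes with a count in another genotype, of which 79 were at 3-fold or more, 29 at 5-fold or more and 11 at 10-fold or more. Leaving aside 3 genes with at most 3 counts in each of the 6 other samples, folds ran from 2.00 for TRM11 to 42.2 for AT3G52130. At the edge of the rule, TRM11 (2.00-fold), AT5G55620 (2.01-fold) and P5CS2 (2.02-fold) lay just inside. EDS16 (1.98-fold), AT1G28610 (1.97-fold) and DAR6 (1.97-fold) lay just outside.

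**Figure D1:**
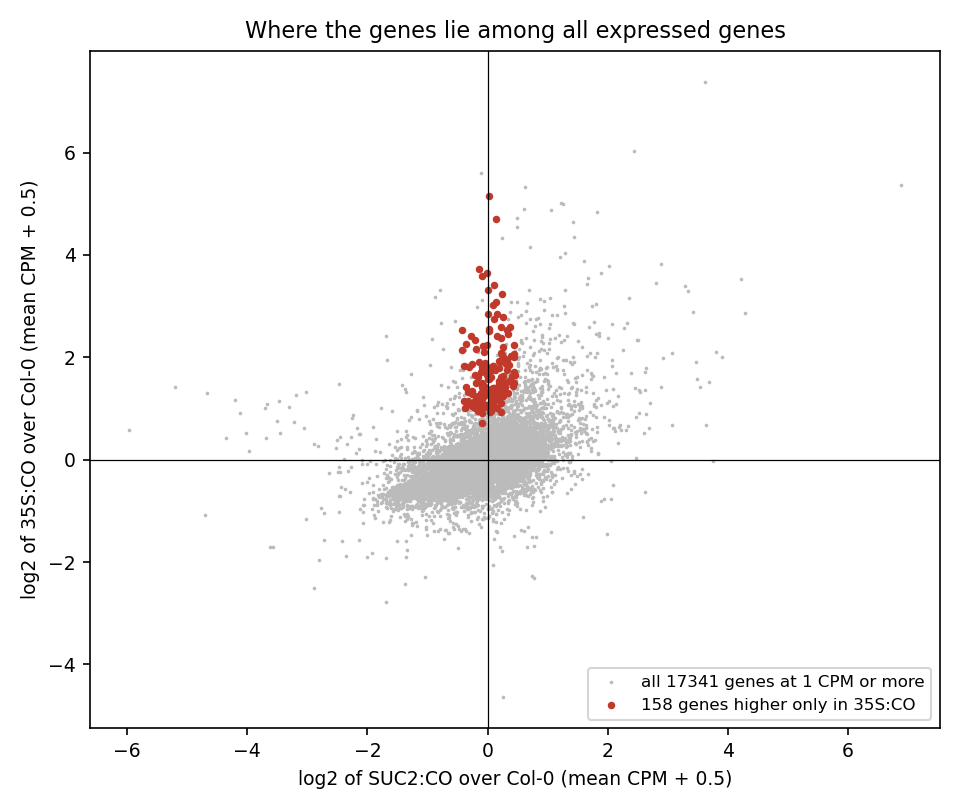
Log2 ratio of mean levels, 35S:CO over Col-0 on the vertical axis and SUC2:CO over Col-0 on the horizontal axis, each with 0.5 CPM added. Each point is 1 of 17341 genes with at least 1 CPM in 35S:CO; the 158 genes higher only in 35S:CO (red) form a column above 0 because the rule places them there, while many other genes that are high in 35S:CO lie to the right, where SUC2:CO is higher than Col-0 too.

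In the edgeR quasi-likelihood fit of all 9 samples, 146 of the 158 genes passed an adjusted p under 0.05 for 35S:CO against Col-0, beside 11.8% of all tested genes in either direction and 6.32% called higher. Against SUC2:CO 149 passed, beside 18.8% of all tested genes and 9.27% called higher, and 145 passed in both. The choice used the same comparisons, so nothing is read from these counts. All 3 35S:CO samples lay above the other 6 for 5.45% of genes at 1 CPM or more. In SUC2:CO against Col-0, where the rule allowed a difference of up to 1.4-fold, 13 passed (12 higher, 1 lower), beside 32.3% of all tested genes. The SUC2:CO and Col-0 samples overlapped for 132 of the 158 genes; SUC2:CO lay wholly above Col-0 for 19 and wholly below for 7. The 26 without overlap are 16.5%, beside 29% of all genes at 1 CPM or more in 35S:CO whose SUC2:CO and Col-0 means lie within 1.4-fold (14.9% above, 14% below); the rule used these samples, so nothing is read from this share.

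The only values outside the choice come from applying the rule to the 6 samples of 2 replicate numbers and reading the number left out. Without number 1, the rule took 184 genes, of which 118 (64.1%) were at least 2 times SUC2:CO and Col-0 in the samples of number 1, beside 2.13% of all genes at the same level. Without number 2 it took 162 genes, of which 139 (85.8%) passed the same mark in number 2, beside 3.16%. Without number 3 it took 175 genes, 111 of them among the 158. Of the 175, 105 (60.0%) passed in number 3, beside 2.22%. These shares describe the genes so chosen, not the 158 as a set. The 35S:CO sample was the highest of the 3 genotypes for 93.5%, 98.1% and 90.3% of the genes so chosen in numbers 1, 2 and 3, against 17.59%, 33.6% and 28.1% of all genes. The median log2 ratio over the higher other genotype was 1.11 in number 1, 1.41 in number 2 and 1.12 in number 3, against 1.29, 1.36 and 1.30 in the samples that chose the genes. All genes had a median of -0.29, -0.13 and -0.16 in those numbers. These are values with no test, since each number holds 1 sample per genotype.

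**Figure D2:**
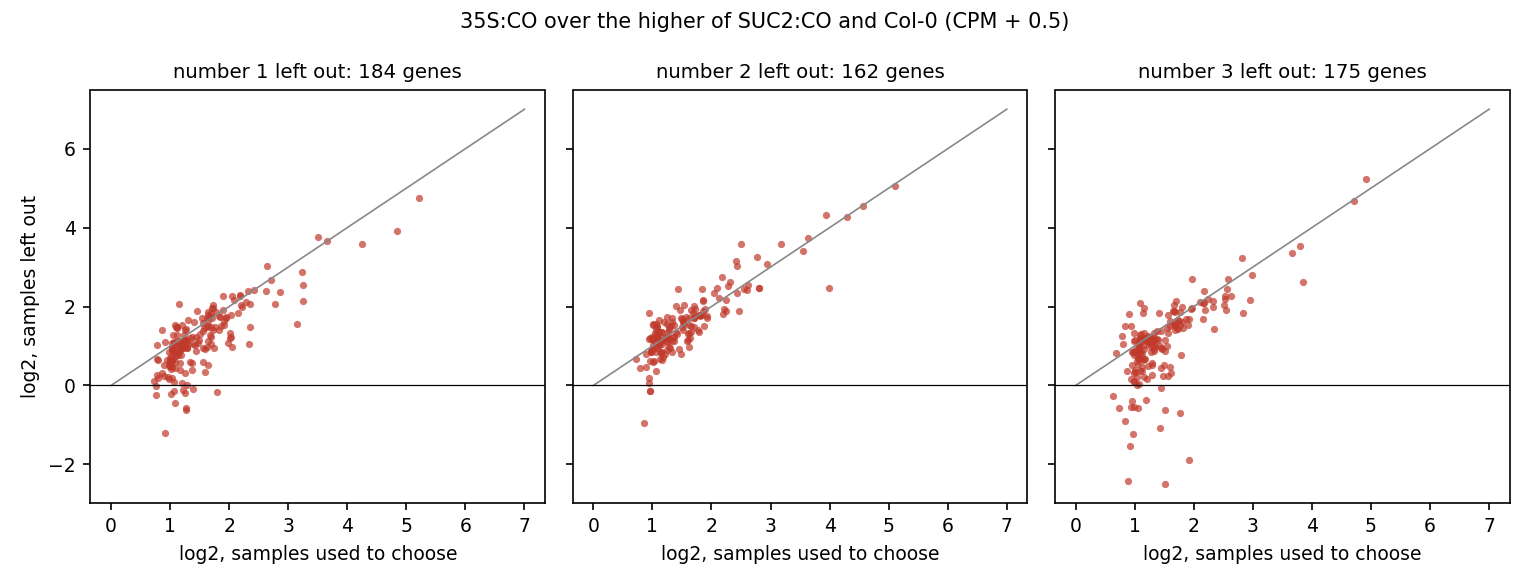
Log2 ratio of 35S:CO over the higher of SUC2:CO and Col-0 (CPM + 0.5), in the samples that chose the genes (horizontal axis) and in the replicate number left out (vertical axis), 1 panel per number and 1 point per chosen gene. Most points lie above 0 on the vertical axis and along the grey line of equal values; number 2 held the most genes at 2-fold or more (85.8%) and number 3 the fewest (60.0%).

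Within 35S:CO, replicate 3 was the highest of the 3 samples for 57.0% of all genes at 1 CPM or more, but for 31.6% of the 158 genes, and the lowest for 19.5% of all genes but 44.9% of the 158. The median ratio of replicate 3 to the mean of the other 2 was 0.961 for the 158 genes and 1.10 for all genes, a contrast that was not tested. CPM was scaled by sample totals alone. The further scaling factors that edgeR estimated (TMM) were 0.969, 0.977 and 1.07 for 35S:CO replicates 1, 2 and 3, and CPM does not apply them. CO was highest in replicate 3 (724 CPM, with 558 and 642 CPM in replicates 1 and 2). The spread in 35S:CO was tightest for UP6 (coefficient of variation 1.69%) and widest for PBP1 (57.8%); the median was 16.2%, against 12.5% over all genes at 1 CPM or more.

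The 158 genes included 4 microRNA precursor loci, and 3 of these lie with other genes of the set in one stretch of chromosome 4. MicroRNAs are short RNAs cut from a hairpin precursor, and bases 2 to 8 of the mature strand, the seed, are shown in capitals; T stands for U. Mature sequences are from RefSeq (TAIR10.1, chr1:24884359-24884382 plus strand for miR163, chr4:7844612-7844632 plus for miR5026, chr4:7845756-7845777 plus for miR850, and chr4:7890590-7890610 and chr4:7890695-7890715 minus for the arms of miR3932b).
ath-miR163: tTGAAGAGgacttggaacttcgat
ath-miR5026: aCTCATAAgatcgtgacacgt
ath-miR850: tAAGATCCggactacaacaaag
ath-miR3932b-3p: aACTTTGTgatgacaacgaag
ath-miR3932b-5p: tTTGACGTgctcgatctgctc
No seed is shared among them. The counts are of reads assigned to the precursor loci and give no level of the mature microRNAs. MIR163, whose mature form is known to target transcripts of methyltransferases of small molecules, had 4.32, 4.62 and 7.96 CPM in 35S:CO, 1.84, 2.34 and 2.44 CPM in SUC2:CO and 1.60, 1.41 and 2.47 CPM in Col-0. Its 35S:CO mean was 2.55 times SUC2:CO and 3.08 times Col-0, and replicate 3 was the highest 35S:CO sample.

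The chromosome 4 stretch, from 7842967 to 8004767 (161.8 kb, TAIR10.1), held 8 of the 158 genes among 35 genes at 1 CPM or more in the 200 kb from its first gene, or 22.9%, while the 158 are 0.911% of genes at that level. No other stretch of this length held more than 3 outside this region. The 8 loci are fewer transcripts than they seem. MIR5026 and MIR850 lie inside the noncoding RNA gene AT4G13495 on the same strand, and MIR3932b inside AT4G13575, so reads of host and precursor may not have been separable. AT4G13495 had 496, 493 and 353 CPM in 35S:CO, 127, 158 and 144 CPM in SUC2:CO and 212, 133 and 193 CPM in Col-0. MIR850 within it had 16.3, 18.0 and 11.8 CPM in 35S:CO, 5.19, 6.11 and 5.03 CPM in SUC2:CO and 6.83, 4.97 and 5.97 CPM in Col-0. The third precursor in that host, MIR863, had a mean of 15.2 CPM in 35S:CO, against 5.13 CPM in SUC2:CO and a Col-0 mean of 7.43 CPM, and was outside the rule because SUC2:CO and Col-0 differed by more than 1.4-fold. All 4 loci were highest in 35S:CO.

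Farther along, MIR3932b had 7.53, 5.19 and 3.71 CPM in 35S:CO, 0.384, 0.883 and 0.375 CPM in SUC2:CO and 0.992, 0.391 and 0.190 CPM in Col-0, and its host AT4G13575 had 32.3, 25.8 and 16.9 CPM in 35S:CO, 5.04, 6.95 and 3.64 CPM in SUC2:CO and 5.84, 3.21 and 4.14 CPM in Col-0. In both, 35S:CO replicate 1 was the highest sample and replicate 3 the lowest 35S:CO sample. AT4G13540, annotated as a golgin family protein, was 3.61 times SUC2:CO and 3.83 times Col-0. The last gene, AT4G13800, a member of a family of magnesium transporter-like proteins, had 39.2, 44.9 and 31.5 CPM in 35S:CO, 2.65, 1.84 and 2.102 CPM in SUC2:CO and 2.25, 2.90 and 2.24 CPM in Col-0, which put its 35S:CO mean at 17.5 times SUC2:CO and 15.6 times Col-0. AT4G13577, between them, was at 2.44 CPM in 35S:CO, against 0.307 CPM in SUC2:CO and a Col-0 mean of 0.166 CPM, and was outside the rule for the same reason as MIR863. The other 27 expressed genes of the stretch had a median log2 change of -0.02 against Col-0, with 5 called higher and 2 lower. Against SUC2:CO it was -0.01, with 2 called higher and 6 lower. Of all tested genes, 6.32% were called higher and 5.48% lower against Col-0, and 9.27% and 9.5% against SUC2:CO.

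**Figure D3:**
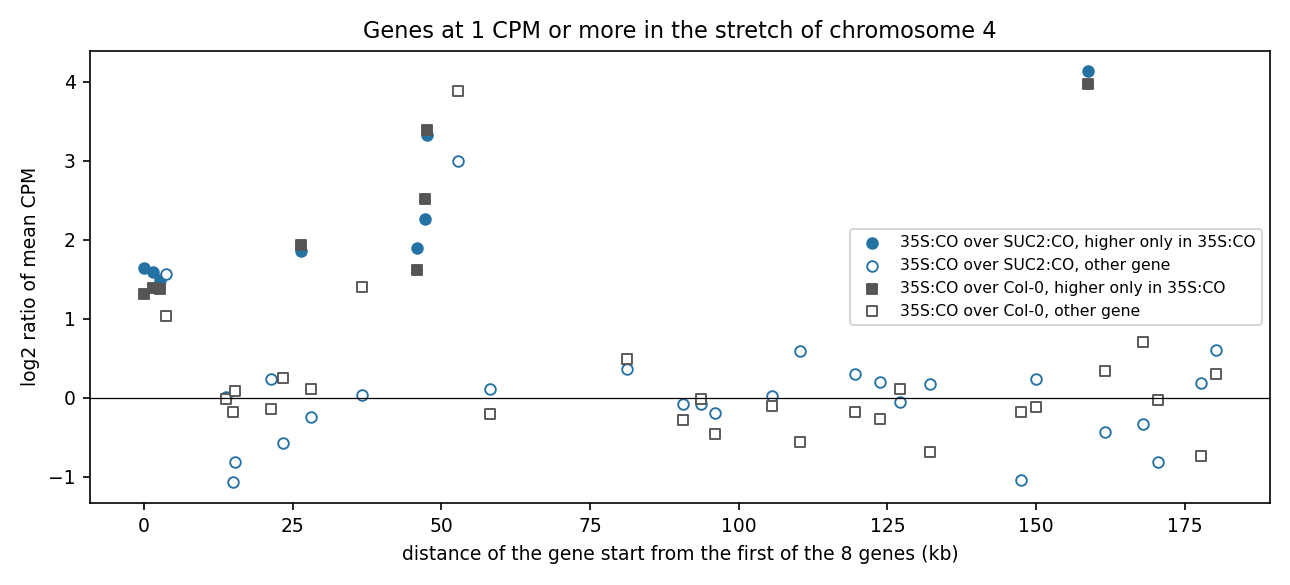
Log2 ratio of mean CPM, 35S:CO over SUC2:CO (circles) and over Col-0 (squares), for the 35 genes at 1 CPM or more, against distance from the first gene in kb. Filled symbols are the 8 genes higher only in 35S:CO; of the remaining 27, MIR863 and AT4G13577 are at 2-fold or more in both ratios and UNE15 over Col-0 alone, while AT4G13505 (0.475-fold) and CYP83A1 (0.486-fold) are the lowest over SUC2:CO.

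Over the whole genome, chromosomes 1 to 5 held 41, 21, 30, 32 and 34 of the 158 genes, or 25.9%, 13.3%, 19.0%, 20.3% and 21.5%, against 26.3%, 14.9%, 19.9%, 15.2% and 23.2% of genes at 1 CPM or more.

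The 250 bases before the annotated start of each gene (RefSeq TAIR10.1) were searched on both strands for 10 short motifs. The G-box CACGTG, which bHLH and bZIP factors bind and which contains the ABRE core ACGTG, was in 19 of the 158 windows (12.03%), 7.41% of windows of genes at 1 CPM or more and 5.90% of all. The ABRE core itself was in 26.6%, against 23.0% and 21.8%. The evening element AAAATATCT, bound by clock MYB factors, was in 7 windows (4.43%), against 2.52% and 2.23%. CCACA, the core of the element through which CO acts at FT, was in 36.1%, against 28.4% and 28.8%, and CCAAT, the NF-Y box, in 45.6%, against 48.5% and 45.4%. CCGAC of the CRT/DRE was in 12.7%, against 13.2% and 11.7%; AAAAATCT of CCA1 in 7.59%, against 6.92% and 6.38%; TTGACC of the W-box in 9.49%, against 11.8% and 11.8%; TGTCTC of the auxin response element in 10.8%, against 10.5% and 11.04%; and the heat shock element in 0.633%, against 0.394% and 0.412%. A match is only a match of letters, and none of these shares was tested.

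Windows of 100 bases are shown for 7 genes described here, with the motif in capitals: the G-box for MIPS2 (chr2:9454310-9454409, minus strand), CRD1 (chr3:21076405-21076504, plus), CH1 (chr1:16851272-16851371, minus), BMY3 (chr5:6225829-6225928, plus) and CSLG1 (chr4:12465940-12466039, plus), and the evening element for AT4G13800 (chr4:8004918-8005017, minus) and CCR1 (chr1:5478364-5478463, plus).
MIPS2: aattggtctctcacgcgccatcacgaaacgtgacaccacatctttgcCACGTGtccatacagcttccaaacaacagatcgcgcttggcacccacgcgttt
CRD1: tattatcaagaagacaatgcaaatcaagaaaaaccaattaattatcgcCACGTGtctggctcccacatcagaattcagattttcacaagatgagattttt
CH1: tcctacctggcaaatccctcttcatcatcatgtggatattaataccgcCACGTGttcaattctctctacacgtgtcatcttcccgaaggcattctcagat
BMY3: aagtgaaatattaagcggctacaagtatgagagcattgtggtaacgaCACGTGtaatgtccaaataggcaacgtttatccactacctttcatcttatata
CSLG1: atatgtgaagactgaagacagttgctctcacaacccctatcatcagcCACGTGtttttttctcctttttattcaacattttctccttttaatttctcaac
AT4G13800: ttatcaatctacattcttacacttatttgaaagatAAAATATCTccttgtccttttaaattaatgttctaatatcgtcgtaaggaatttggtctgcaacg
CCR1: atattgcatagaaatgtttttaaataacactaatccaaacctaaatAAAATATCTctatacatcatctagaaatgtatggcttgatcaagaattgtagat
The first 5 begin their capitals at 62, 52, 52, 80 and 130 bases before the start, and the evening elements at 215 and 193 bases before it. The CH1 window also holds a further CACGTG, left in lower case.

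Among the 31 genes at 100 CPM or above in 35S:CO, the highest folds were those of NDA1 and MIPS2, enzymes of energy and carbon metabolism. NDA1, an alternative NAD(P)H dehydrogenase of the inner mitochondrial membrane that is known to respond to light, had 122, 146 and 143 CPM in 35S:CO, 4.04, 3.92 and 2.40 CPM in SUC2:CO and 3.40, 3.48 and 3.31 CPM in Col-0. The 35S:CO samples were tight and the other 6 lay between 2.40 and 4.04 CPM, so that the 35S:CO mean was 39.7 times SUC2:CO and 40.4 times Col-0. MIPS2, which makes inositol phosphate from glucose 6-phosphate, had 94.2, 101 and 149 CPM in 35S:CO, 5.77, 3.88 and 3.49 CPM in SUC2:CO and 4.04, 2.54 and 5.21 CPM in Col-0. Replicate 3 was the highest 35S:CO sample, and the mean was 26.2 times SUC2:CO and 29.2 times Col-0. PPT2, a phosphoenolpyruvate/phosphate translocator of the plastid envelope, had 58.7, 51.8 and 50.8 CPM in 35S:CO, 6.88, 6.99 and 5.37 CPM in SUC2:CO and 10.7, 9.31 and 6.46 CPM in Col-0. BMY3 (BAM9), a beta-amylase-like protein of the plastid, had 75.2, 79.9 and 83.2 CPM in 35S:CO, 14.8, 17.3 and 17.9 CPM in SUC2:CO and 14.3, 12.6 and 12.8 CPM in Col-0; its SUC2:CO samples lay above its Col-0 samples, and it was among the 12 genes called higher in SUC2:CO.

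CAT2, the main leaf catalase, which removes the hydrogen peroxide made in photorespiration, had 4220, 4895 and 4121 CPM in 35S:CO, 879, 932.2 and 1043 CPM in SUC2:CO and 747, 824 and 623 CPM in Col-0. It was the most abundant of the 158 per length of transcript, at 1699 CPM per kb in 35S:CO, against 366 CPM per kb in SUC2:CO and 282 CPM per kb in Col-0. CRD1 (1516 CPM per kb in 35S:CO), the gibberellin-regulated GASA1 (1028) and the noncoding AT4G13495 (511) came next on the same scale. Of the sugar transporters, SWEET13, which exports sucrose, had 20.3, 26.6 and 18.1 CPM in 35S:CO, 0.730, 2.04 and 1.01 CPM in SUC2:CO and 1.03, 1.45 and 1.33 CPM in Col-0, and its mean was 17.2 times SUC2:CO and 17.1 times Col-0. SWEET17, which moves fructose across the tonoplast, had 35.3, 29.7 and 25.4 CPM in 35S:CO, 10.1, 8.45 and 10.5 CPM in SUC2:CO and 11.8, 12.3 and 11.1 CPM in Col-0. Of the 17 SWEET genes listed, 10 could be tested. In SUC2:CO against Col-0, 3 of the 10 rose and 1 fell, beside 15.5% and 16.8% of all tested genes. In 35S:CO against Col-0, 3 rose and 1 fell, beside 6.32% and 5.48%. Of these 3, SWEET13 and SWEET17 are members of the set and were chosen as high by the rule. The other, SWEET15, was raised in both lines, at 2.68, 2.21 and 11.7 CPM in 35S:CO, 10.7, 9.18 and 8.00 CPM in SUC2:CO and 0.00, 0.0391 and 0.0380 CPM in Col-0. SWEET12, which exports sucrose in the phloem, fell against both, at 14.5, 23.6 and 35.5 CPM in 35S:CO, 208, 200 and 196 CPM in SUC2:CO and 96.1, 144 and 122 CPM in Col-0. Its adjusted p was 5.49e-05 against SUC2:CO and 0.000267 against Col-0 (edgeR).

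**Figure D4:**
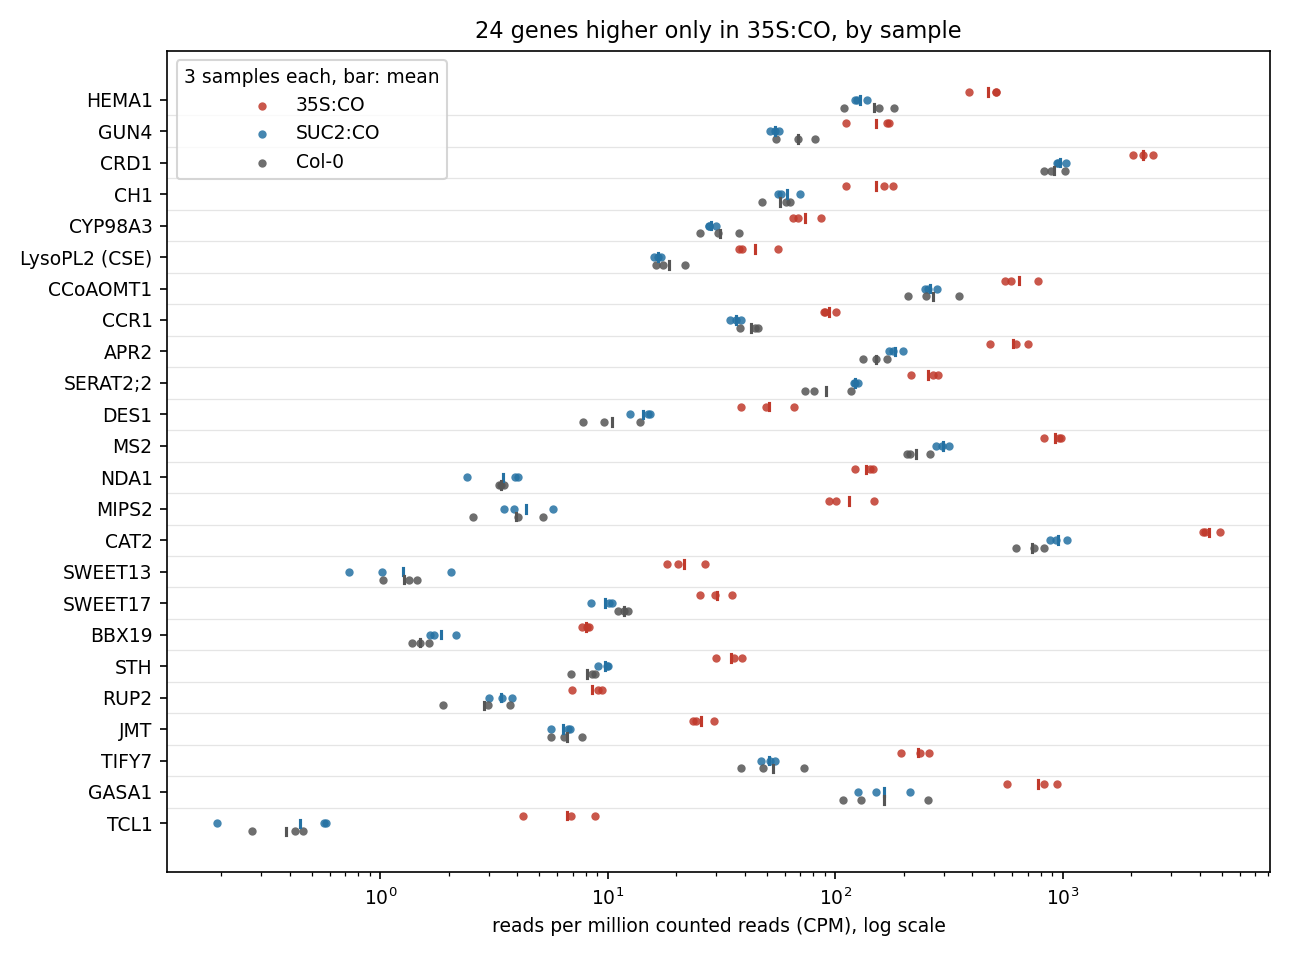
Level in CPM on a log axis of 24 of the 158 genes in each of the 9 samples (points), with the mean of each genotype as a bar. The red 35S:CO points lie to the right of all others in each row, as the rule requires, from under 10 CPM for TCL1 to 4121 CPM and more for CAT2, while the SUC2:CO and Col-0 means lie within the 1.4-fold that the rule allows.

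Chlorophyll synthesis was represented by 4 enzymes or regulators at spaced steps of the pathway. HEMA1 codes for glutamyl-tRNA reductase, the entry enzyme of tetrapyrrole synthesis, and had 511, 509 and 387 CPM in 35S:CO, 122, 138 and 125 CPM in SUC2:CO and 182, 155 and 109 CPM in Col-0. GUN4, which stimulates magnesium chelatase, had 169.5, 172 and 111 CPM in 35S:CO, 54.4, 56.5 and 51.4 CPM in SUC2:CO and 81.3, 68.8 and 54.7 CPM in Col-0. CRD1 (CHL27), a subunit of the cyclase that closes the fifth ring of chlorophyll, had 2492, 2253 and 2045 CPM in 35S:CO, 943, 1037 and 951 CPM in SUC2:CO and 1022, 886 and 830.4 CPM in Col-0. CH1, which is chlorophyllide a oxygenase and makes chlorophyll b, had 179.5, 164 and 112 CPM in 35S:CO, 55.7, 69.7 and 57.8 CPM in SUC2:CO and 63.5, 60.6 and 47.5 CPM in Col-0. In all 4, replicate 3 was the lowest 35S:CO sample. HEMA1, GUN4 and CH1, with the chelatase subunit gene CHLH, are known as genes of the pathway that follow light and the clock.

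The pathway list of 28 genes was drawn up after these values had been seen. The 4 named genes, chosen as high by the rule, are all the calls in it against Col-0 (4 higher, 0 lower). Of all tested genes, 6.32% were called higher and 5.48% lower. The median log2 change of the list was -0.07, beside -0.04 for all genes. Of the other 24, CHLH came nearest, with a log2 change of 0.55 ± 0.16 (SE) and an adjusted p of 0.0553. With replicate number as a block, CHLH (adjusted p = 0.0115) and PORB (0.0325) passed as higher and CHLG (0.0409) as lower. Against SUC2:CO, HEME1, HEME2 and PORB were also called higher and FC2 lower, the last with an adjusted p of 0.0579 under RLE scaling. The 3 higher calls became 0 without 35S:CO replicate 1, SUC2:CO replicate 1 or SUC2:CO replicate 3, and 1 without 35S:CO replicate 3 or SUC2:CO replicate 2. Of all tested genes, 9.27% were called higher and 9.5% lower against SUC2:CO. In SUC2:CO against Col-0, 7 of the 24 were called lower and 0 higher, beside 16.8% and 15.5% of all tested genes. Over the settings, 2 to 10 were lower and 0 to 1 higher there.

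Tocopherol, made in the same plastids, was represented by 2 enzymes that act one after the other. TAT7, a tyrosine aminotransferase, had 41.4, 40.0 and 38.8 CPM in 35S:CO, 5.996, 6.11 and 5.26 CPM in SUC2:CO and 7.36, 5.87 and 8.02 CPM in Col-0. PDS1, which is 4-hydroxyphenylpyruvate dioxygenase and acts on its product, had 54.4, 59.6 and 55.7 CPM in 35S:CO, 15.6, 17.8 and 17.4 CPM in SUC2:CO and 13.1, 15.4 and 15.3 CPM in Col-0. The SUC2:CO and Col-0 samples overlapped for TAT7, while for PDS1 those of SUC2:CO lay above those of Col-0. The 35S:CO mean of TAT7 was 6.93 times SUC2:CO and 5.66 times Col-0. ABA1 is zeaxanthin epoxidase, a step towards abscisic acid, and had 259.6, 262 and 246 CPM in 35S:CO, 105, 111 and 109 CPM in SUC2:CO and 84.0, 73.6 and 81.0 CPM in Col-0; it was one of the 12 genes called higher in SUC2:CO than in Col-0. ACHT4, an atypical thioredoxin of the chloroplast, was also among those 12, and its 35S:CO mean was 2.97 times SUC2:CO and 4.04 times Col-0.

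Phenylalanine-derived metabolism was represented by a run of enzymes of monolignol synthesis, the route to lignin. CYP98A3, the 3′-hydroxylase of coumaroyl shikimate, had 68.3, 65.3 and 86.6 CPM in 35S:CO, 29.9, 27.9 and 27.8 CPM in SUC2:CO and 30.6, 25.3 and 37.6 CPM in Col-0. LysoPL2, the caffeoyl shikimate esterase (CSE) that acts next, had 39.0, 37.9 and 55.9 CPM in 35S:CO, 17.2, 16.0 and 16.6 CPM in SUC2:CO and 17.55, 16.3 and 21.9 CPM in Col-0. CCoAOMT1, which methylates caffeoyl-CoA, had 556, 593 and 779 CPM in 35S:CO, 279, 256 and 247 CPM in SUC2:CO and 209, 250.1 and 351 CPM in Col-0. CCR1, which reduces the resulting feruloyl-CoA, had 89.1, 90.3 and 101 CPM in 35S:CO, 38.6, 36.6 and 34.3 CPM in SUC2:CO and 45.5, 38.2 and 44.4 CPM in Col-0. Replicate 3 was the highest 35S:CO sample in all 4, the reverse of the chlorophyll genes. ADT5, an arogenate dehydratase that makes phenylalanine, had 20.7, 18.9 and 29.6 CPM in 35S:CO, 8.99, 9.64 and 10.7 CPM in SUC2:CO and 10.1, 9.47 and 13.3 CPM in Col-0, with the same sample highest. The dirigent-like gene AT1G65870 had 36.1, 35.8 and 28.7 CPM in 35S:CO, 4.61, 6.18 and 5.59 CPM in SUC2:CO and 6.33, 4.26 and 2.78 CPM in Col-0.

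Outside the 158 genes, 7 of 13 tested genes of the pathway rose and none fell against Col-0, beside 6.32% and 5.48% of all tested genes. They were PAL1 (log2 change 1.41 ± 0.28, SE; adjusted p = 0.00998) and PAL2 (1.47 ± 0.17; adjusted p = 0.000315), which open the pathway, as well as C4H, 4CL1, 4CL2, HCT and CAD4. That count was 7 to 8 in the other settings tried. Against SUC2:CO 8 of the 13 rose and 1, PAL3, fell, beside 9.27% and 9.5% of all tested genes. The 13 belong to a list of 17 drawn up after the values had been seen, and the 4 others were chosen as high by the rule; over all 17 the median log2 change against Col-0 was 1.09, beside -0.04 for all genes. In SUC2:CO against Col-0, 6 of the 13 fell, namely PAL1, PAL2, C4H, 4CL3, F5H1 and CAD4, and 2 rose, PAL3 and 4CL2, beside 16.8% lower and 15.5% higher over all tested genes. PAL2 fell by 1.39 ± 0.17 on the log2 scale (SE; adjusted p = 0.000531), and HCT had a log2 change of 0.02 ± 0.16. With replicate number as a block, CAD5 passed as higher than Col-0 (adjusted p = 0.0200) and F5H1 as lower (0.0486). The branch to flavonoids and anthocyanins held none of the 158 genes; of its 12 tested genes 0 rose and 1 fell in 35S:CO against Col-0, and 11 fell in SUC2:CO against Col-0.

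Sulfur metabolism was represented from sulfate reduction to methionine. APR2, the main adenosine 5′-phosphosulfate reductase, had 480, 704 and 619.9 CPM in 35S:CO, 179, 172 and 199 CPM in SUC2:CO and 132, 169 and 151 CPM in Col-0. SERAT2;2, a serine acetyltransferase of mitochondria, had 215, 269 and 282 CPM in 35S:CO, 126, 121 and 122 CPM in SUC2:CO and 73.4, 80.9 and 118 CPM in Col-0; it overlaps ABCC7 on the same strand, which is also among the 158, so their reads may not have been separable. DES1, a cytosolic cysteine desulfhydrase that releases sulfide, had 38.3, 49.4 and 66.1 CPM in 35S:CO, 15.0, 12.5 and 15.4 CPM in SUC2:CO and 7.74, 9.66 and 13.8 CPM in Col-0. MS2, a methionine synthase, had 984, 825 and 961 CPM in 35S:CO, 317, 295 and 278 CPM in SUC2:CO and 260.2, 207 and 213 CPM in Col-0. SUC2:CO was called higher than Col-0 for SERAT2;2 and MS2, within the 1.4-fold limit.

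Other enzymes of the same steps could be set beside them. In a list of 24 genes drawn up after the values had been seen, with these 4 included, 8 rose and 1 fell against Col-0, and 6 rose and 3 fell against SUC2:CO, with medians of 0.14 and 0.05 on the log2 scale beside -0.04 and 0.01 for all genes. The 4 had been chosen as high by the rule. Of the 20 outside the 158, 4 rose and 1 fell against Col-0 (3 to 5 and 0 to 2 in the other settings). Against SUC2:CO, 2 of the 20 rose and 3 fell (1 to 3 and 2 to 4). In SUC2:CO against Col-0, 8 of the 20 rose and 1 fell (6 to 9 and 1 to 3), beside 15.5% and 16.8% of all tested genes. Over all 24, that comparison gave 10 higher, 1 lower and a median log2 change of 0.33, so rises in this list were not particular to 35S:CO. Over all tested genes, 6.32% rose and 5.48% fell against Col-0, and 9.27% rose and 9.5% fell against SUC2:CO. Beside APR2, APR1 fell by 0.92 ± 0.13 against SUC2:CO (log2, SE; adjusted p = 0.00137), and APR3 had a change of 0.10 ± 0.22 against Col-0 (adjusted p = 0.832). SERAT2;1, the plastid counterpart of SERAT2;2, rose by 1.75 ± 0.17 against Col-0 (adjusted p = 9.41e-05), but by 1.69 ± 0.17 in SUC2:CO as well (adjusted p = 0.000267). APS1, APS4 and SERAT3;1 also rose against Col-0 and APS3 fell; the calls of APS4 and APS3 were lost when only the compared genotypes were fitted (adjusted p = 0.0754 and 0.0853).

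**Figure D5:**
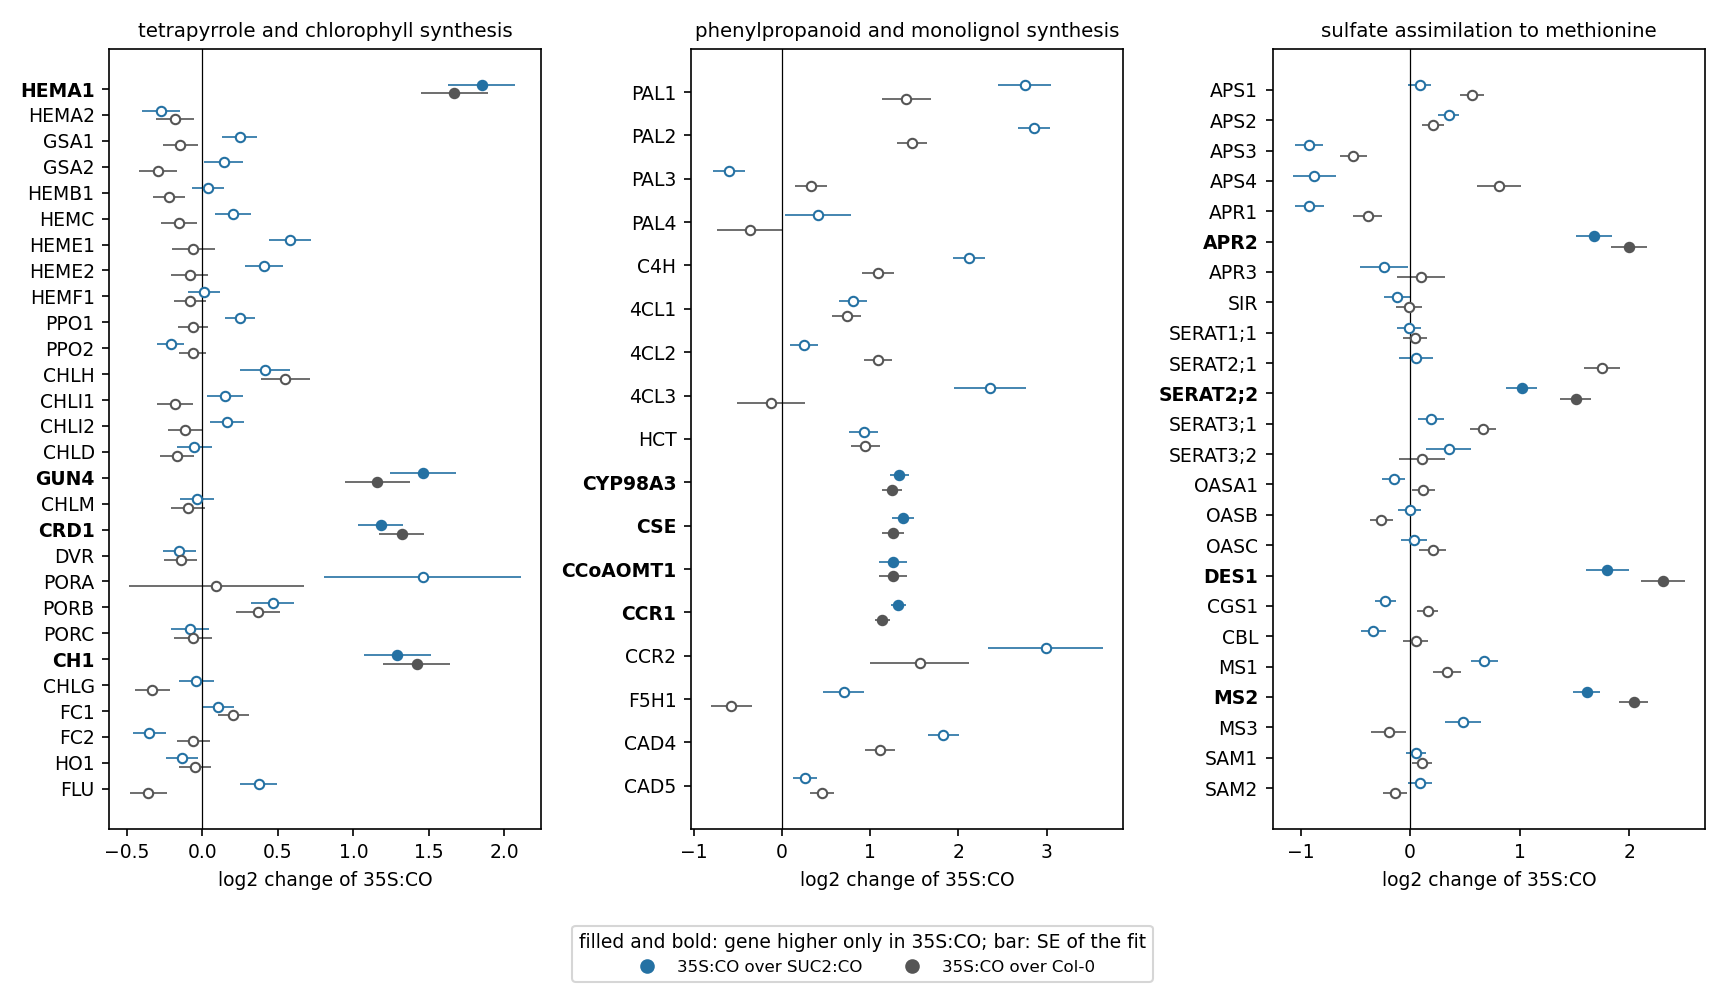
Log2 change of 35S:CO over SUC2:CO (blue) and over Col-0 (grey) with the SE of the edgeR fit, for the genes of 3 pathways. Filled symbols and bold names are genes higher only in 35S:CO. The rule places these to the right of 0 and keeps their blue and grey values close together, so nothing is read from either feature. In the tetrapyrrole panel the other genes lie farther left, PORA over SUC2:CO excepted. The 2-fold limit of the rule largely sets that order, so nothing is read from it. In the phenylpropanoid panel PAL1, PAL2 and C4H lie farther from 0 in blue than in grey.

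Regulators of light signalling made up 5 of the genes. BBX19, a B-box protein known to bind CO and delay flowering, had 8.26, 7.70 and 8.08 CPM in 35S:CO, 2.15, 1.73 and 1.65 CPM in SUC2:CO and 1.37, 1.49 and 1.64 CPM in Col-0. STH (BBX25), a B-box protein that interacts with HY5, had 30.0, 35.7 and 38.8 CPM in 35S:CO, 10.03, 9.95 and 9.09 CPM in SUC2:CO and 8.81, 6.88 and 8.56 CPM in Col-0. RUP1 and RUP2 return the UV-B receptor UVR8 to its inactive form; RUP2 had 9.40, 6.94 and 9.09 CPM in 35S:CO, 3.42, 3.00 and 3.79 CPM in SUC2:CO and 3.70, 1.88 and 2.97 CPM in Col-0, and RUP1 had 1.11, 1.03 and 1.95 CPM in 35S:CO, 0.307, 0.422 and 0.563 CPM in SUC2:CO and 0.572, 0.235 and 0.684 CPM in Col-0. BIC2 (AT3G44450), an inhibitor of blue-light cryptochromes, had 69.1, 85.6 and 82.2 CPM in 35S:CO, 34.5, 37.1 and 33.1 CPM in SUC2:CO and 32.2, 38.6 and 29.5 CPM in Col-0. The BBX19 samples of 35S:CO were the tightest of the 5, between 7.70 and 8.26 CPM.

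Of 18 light and UV-B regulators, a list drawn up after the values had been seen, 8 rose and 2 fell against Col-0. Against SUC2:CO, 9 rose and 1 fell. Over all tested genes, 6.32% rose and 5.48% fell against Col-0, and 9.27% rose and 9.5% fell against SUC2:CO. The median log2 change of the list was 0.55 and 0.64, beside -0.04 and 0.01 for all genes. These list counts and medians include the 5 genes that the rule chose as high. Among the 5 named genes RUP1 was not called against Col-0. Outside the 158 genes, SPA1, BIC1, ELIP2 and BBX24 rose against Col-0 (4 of 13, and 3 to 6 in the other settings); against SUC2:CO 4 of the 13 rose, and 2 without SUC2:CO replicate 3. HY5, the central factor of light-grown development, fell by 1.34 ± 0.24 (log2, SE; adjusted p = 0.00568), and BBX22 fell by 0.63 ± 0.14 (adjusted p = 0.0175, and 0.0545 when only the compared genotypes were fitted). With replicate number as a block, BBX18 passed as higher (adjusted p = 0.0209) and UVR8 as lower (0.0276).

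Hormone genes included 2 of the jasmonate list. TIFY7 (JAZ9), a repressor of jasmonate responses, had 195, 259 and 237 CPM in 35S:CO, 54.4, 46.9 and 51.5 CPM in SUC2:CO and 47.9, 38.7 and 72.8 CPM in Col-0. JMT, which methylates jasmonic acid, had 24.5, 23.6 and 29.1 CPM in 35S:CO, 6.84, 6.68 and 5.63 CPM in SUC2:CO and 5.65, 6.42 and 7.72 CPM in Col-0. Of 17 jasmonate genes tested, 4 rose, these 2 included, and 4 fell against Col-0, beside 6.32% higher and 5.48% lower over all tested genes. JAZ1 fell by 1.00 ± 0.27, JAZ5 by 2.03 ± 0.49 and JAZ6 by 1.34 ± 0.26 (log2, SE; edgeR adjusted p = 0.0376, 0.0257 and 0.00807). The call of JAZ1 was lost when only the compared genotypes were fitted (adjusted p = 0.0822). The synthesis gene OPR3 also fell, with its call lost in that same fit (0.0954), and VSP2 and CORI3 rose, CORI3 with 0.0812 there. The 4 lower calls became 1 without 35S:CO replicate 2 or 3 and 2 without 35S:CO replicate 1, Col-0 replicate 3 or SUC2:CO replicate 2 or 3; the higher calls outside the 158 genes, 2 in number, became 1 without 35S:CO replicate 1 or 2 or Col-0 replicate 2 and 3 without 35S:CO replicate 3. JAZ1 (log2 change -1.07) and JAZ5 (-1.87) also fell in SUC2:CO against Col-0. Not every JAZ gene was called lower: JAZ2 had a log2 change of 0.03 ± 0.12 against Col-0 and rose by 0.46 ± 0.12 against SUC2:CO (adjusted p = 0.0276). JAZ10 had a log2 change of -1.24 ± 0.45 against Col-0 (adjusted p = 0.103) and of 1.33 ± 0.51 against SUC2:CO (adjusted p = 0.0944, but 0.0484 with the replicate block and 0.0320 when only the compared genotypes were fitted).

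GASA1, which responds to gibberellin, had 569.9, 948 and 826 CPM in 35S:CO, 126, 152 and 213 CPM in SUC2:CO and 130.3, 255 and 108 CPM in Col-0. GA2OX6, which inactivates gibberellin, was 2.14 times SUC2:CO and 2.87 times Col-0 at 1.01 to 1.64 CPM in 35S:CO. PYL2, an abscisic acid receptor, and AFP3, which binds ABI5-like factors, were 4.22 and 3.12 times the higher other genotype. None of the 22 genes of the list of abscisic acid and drought response was among the 158. AT4G17280, annotated as auxin-responsive, had 10.7, 7.89 and 8.23 CPM in 35S:CO, 0.307, 0.691 and 0.338 CPM in SUC2:CO and 0.458, 0.0782 and 0.608 CPM in Col-0, and the SAUR-like AT4G22620 was 6.55 times the higher other genotype.

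Transcription factors numbered 15. TCL1, a single-repeat MYB that represses trichome formation, had 4.24, 8.77 and 6.91 CPM in 35S:CO, 0.577, 0.192 and 0.563 CPM in SUC2:CO and 0.420, 0.274 and 0.456 CPM in Col-0. AT2G28200, a zinc finger protein, had 28.6, 27.5 and 36.0 CPM in 35S:CO, 4.08, 4.53 and 4.36 CPM in SUC2:CO and 2.82, 3.56 and 5.13 CPM in Col-0. Of factors known from stress responses, WRKY46 was 4.29, ZAT6 3.62 and ZF2 3.42 times the higher other genotype, with means under 10 CPM in 35S:CO. DREB1A (CBF3), a cold-response factor, had 1.07, 1.98 and 0.781 CPM in 35S:CO, 0.384, 0.384 and 0.751 CPM in SUC2:CO and 0.229, 0.743 and 0.760 CPM in Col-0. It was the only one of 12 cold-response genes in the set. Its 35S:CO level was called higher against neither Col-0 nor SUC2:CO. KAN2, which specifies the abaxial leaf side, was between 31.9 and 33.5 CPM in 35S:CO, 2.46 times SUC2:CO and 3.39 times Col-0, and was one of the 12 called higher in SUC2:CO.

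The defence role group, set by hand after the values were seen, held 3 genes. Some genes annotated for defence were placed in other groups, such as the dirigent-like AT1G65870. PR5, a marker of salicylic acid responses, had 8.41, 18.9 and 10.8 CPM in 35S:CO, 6.34, 5.38 and 3.60 CPM in SUC2:CO and 3.66, 4.66 and 6.16 CPM in Col-0, with replicate 2 far above the other 35S:CO samples. Of 12 genes tested in the salicylic acid list, 6 rose and 0 fell against Col-0, beside 6.32% and 5.48% of all tested genes, and likewise against SUC2:CO, beside 9.27% and 9.5%. Of the 11 other than PR5, 5 rose against SUC2:CO, but 2 without SUC2:CO replicate 3 and 3 without 35S:CO replicate 3 or SUC2:CO replicate 1 or 2. EDS16 (ICS1), which makes salicylic acid and lay just outside the rule, rose by 1.00 ± 0.17 against Col-0 (log2, SE; adjusted p = 0.00417). PAD4, EDS1 and WRKY70 rose against Col-0 in 35S:CO and in SUC2:CO. SARD1 passed against Col-0 with replicate number as a block (adjusted p = 0.0265, against 0.0635 without it).

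Transporters of ions, water and amino acids made up a further group. KUP8 (AT5G14880), a potassium transporter, had 143, 190.3 and 146 CPM in 35S:CO, 50.5, 50.3 and 52.9 CPM in SUC2:CO and 34.8, 39.2 and 39.1 CPM in Col-0. PIP1A, an aquaporin, had 190.1, 199.5 and 189 CPM in 35S:CO, 86.7, 91.7 and 86.1 CPM in SUC2:CO and 60.0, 80.5 and 80.3 CPM in Col-0. NRAMP1, which takes up manganese and iron, was 3.13 times SUC2:CO and 2.61 times Col-0. Among 7 genes of amino acid transport and nitrogen, AAP1, an amino acid permease, had 167, 159 and 153 CPM in 35S:CO, 66.3, 59.9 and 52.5 CPM in SUC2:CO and 86.4, 77.5 and 60.7 CPM in Col-0, and ARGAH2, an arginase, was 4.96 times SUC2:CO and 4.73 times Col-0. P5CS2 of proline synthesis and the proline transporter ProT3 were 2.02 and 2.26 times the higher other genotype.

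Cell wall genes included CSLG1 and CSLG3, both of a cellulose synthase-like family. CSLG1 had 7.26, 9.84 and 8.43 CPM in 35S:CO, 0.999, 0.576 and 0.451 CPM in SUC2:CO and 0.992, 0.469 and 0.228 CPM in Col-0, and CSLG3 33.8, 34.1 and 30.6 CPM in 35S:CO, 19.5, 16.4 and 12.1 CPM in SUC2:CO and 16.7, 9.23 and 9.32 CPM in Col-0. The fold of CSLG1 over the higher other genotype was 12.6 and that of CSLG3 2.06. TBL37 and TBL26, of a family that acetylates wall polymers, were 6.46 and 3.50 times the higher other genotype. Among kinases, CIPK1, which works with calcineurin B-like calcium sensors, had 109.6, 122 and 90.6 CPM in 35S:CO, 18.8, 20.9 and 21.6 CPM in SUC2:CO and 24.6, 12.6 and 15.2 CPM in Col-0, and PK1, a ribosomal S6 kinase, had 272, 316 and 271 CPM in 35S:CO, 76.1, 74.0 and 79.1 CPM in SUC2:CO and 81.9, 77.8 and 84.1 CPM in Col-0.

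Some genes were almost without reads outside 35S:CO. AT3G52130, annotated as a lipid-transfer protein, had 6.76, 7.51 and 8.74 CPM in 35S:CO, 0.115, 0.115 and 0.188 CPM in SUC2:CO and 0.0382, 0.469 and 0.0380 CPM in Col-0. AT3G48620, of an outer membrane protein family, had 17, 31 and 47 counts in 35S:CO and 0 in all 6 other samples; its 35S:CO mean was at least 10.4-fold higher than 3 counts per library. AT3G24750, of unknown function, had 169, 144 and 49 counts in 35S:CO, 1, 0 and 0 in SUC2:CO and 0, 0 and 1 in Col-0. The kinase-like AT5G03640 had 59, 56 and 85 counts in 35S:CO, 3, 1 and 0 in SUC2:CO and 0, 2 and 1 in Col-0. No fold is given for the last pair, whose other genotypes hold so few counts. Beyond the groups described, 58 of the 158 genes had another or no known role, with folds from 2.00 upward and a median of 3.03.

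The lists for heat shock, glucosinolates, iron deficiency, phosphate starvation, senescence, starch and sugar, the flowering pathway and the circadian clock held none of the 158 genes. Of the 20 clock genes, 10 rose and 2 fell in 35S:CO against Col-0, beside 6.32% and 5.48% of all tested genes, with a median log2 change of 0.47 beside -0.04 for all genes. In SUC2:CO against Col-0, 15 of the 20 rose, beside 15.5%. Of the 13 flowering genes tested, 6 rose and 2 fell in 35S:CO against Col-0, with a median of 0.43. The sulfur starvation list held APR2 alone. Of its 11 tested genes, APR2 included, 1 rose and 2 fell in 35S:CO against Col-0. Against SUC2:CO 1 rose and 7 fell, beside 9.27% and 9.5% of all tested genes. The median log2 change of this list was -0.39 against Col-0 and -0.92 against SUC2:CO, beside -0.04 and 0.01 for all genes.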

How the data were processed

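The deposited table holds the authors' raw counts of reads for each gene, not normalized, with a column per sample. The submitters' processing notes name TAIR10, FastQC, STAR, featureCounts and limma, without versions or order. The labels call the libraries strand-specific; whether counting used strand is not given in the sources used here. Of the counted genes, 32548 matched the RefSeq TAIR10.1 annotation and 285 did not, and all 158 described genes matched.

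The 158 genes and all gene lists were chosen with earlier results of these data known, and 4 lists (tetrapyrrole, phenylpropanoid, sulfate to methionine, light and UV-B) and the role groups after the values were seen. In the phenylpropanoid list 1 gene is not reported here and is left out of its counts. A rule named 58 of the genes (and CO) by separation, level per kb, lists, keywords, neighbours and the 2-fold edge; other named genes were added after their values were seen. CPM used column totals; level per kb used the longest RefSeq transcript.

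edgeR 4.0.16 (TMM scaling, filterByExpr, quasi-likelihood F-tests, all 9 samples; R 4.3.3) gave log2 changes for 19149 genes with Benjamini-Hochberg adjustment over all, and was tested on simulated data. A call is an adjusted p under 0.05. Samples with the same number deviated together in 35S:CO and Col-0 (correlations 0.44, 0.30 and 0.25), which by a threshold of 0.1 treats these numbers as pairs. The main fit held genotype alone, so its calls and adjusted p values leave these pairs out. Only the replicate block includes them. Alternatives were RLE scaling, no filter, DESeq2 1.42.0, the replicate block, fits of only the compared genotypes, other limits of the rule, and leaving out samples. At 3 counts the floor was 0.113 to 0.117 CPM, and it covers counting error only.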

Additional observations from a re-analysis of the deposited data

How the results depend on the processing

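The number of genes that met the rule was 158, and it moved with the limits: 307 at 1.5-fold, 80 at 3-fold, 101 with SUC2:CO and Col-0 within 1.2-fold and 247 within 2-fold. With TMM-scaled or RLE-scaled totals it was 154 in both, of which 145 and 141 were among the 158. Leaving out 1 sample or 1 replicate number gave 155 to 184 genes. Genes chosen without a number were at least 2 times both other genotypes in that number for 60.0% to 85.8% (69.5% pooled).

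Over all genes, 35S:CO against Col-0 gave 2261 calls, 1260 when only the compared genotypes were fitted (72.0% of them higher, against 53.6%), 3033 with the replicate block and 1159 to 2167 without 1 sample, the lowest without 35S:CO replicate 2; without Col-0 replicate 1 it was 1373. 35S:CO against SUC2:CO gave 3595 calls, 4348 with the block and 1584 to 4110 without 1 sample, with 2076 and 2355 without 35S:CO replicates 1 and 3, and 2029 and 1584 without SUC2:CO replicates 2 and 3. SUC2:CO against Col-0 gave 6176 calls, 6902 with the block and 3572 to 6615 without 1 sample, with 3954 without Col-0 replicate 1 and 3572 without SUC2:CO replicate 3. The cause was not tested. The paired numbers come from the data alone: for 35S:CO with SUC2:CO and for SUC2:CO with Col-0, correlations were not all above 0.1. The 58 genes named by the rule, and CO, kept their direction in all settings run. The 58 were chosen as high in 35S:CO, so their direction was largely set beforehand and nothing is read from it. Other named genes were not followed there. With 3 samples a genotype, levels near 1 CPM rest on few counts.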
